A study of Mus musculus with 4 samples.

Results

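The replication-dependent histone cluster genes are the mouse genes whose GENCODE M21 symbols begin with Hist1h, Hist2h, Hist3h or Hist4h. The rule that picks them uses the name alone and no measured value. GENCODE M21 lists 70 of them, and 66 had a row among the 22524 genes of the count files; Hist1h2aj, Hist1h2bh, Hist1h2bm and Hist3h2bb-ps had none. By the prefix of their symbols, 53 of the 66 belong to Hist1 on chromosome 13, 10 to Hist2 on chromosome 3, 2 to Hist3 on chromosome 11 and 1 to Hist4 on chromosome 6. By product, 6 encode linker histone H1, 19 H2A, 16 H2B, 12 H3 and 13 H4, and 1 of the H2A genes, Hist1h2al, is annotated as a pseudogene. Hist1h2al lies 27.3 Mb from the other 52 Hist1 members.

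Histones package DNA into nucleosomes, in which H2A, H2B, H3 and H4 form the core and H1 binds the linker DNA. The cluster genes supply histones while DNA is copied, so their mRNA rises in S phase and is degraded when replication ends. Their mRNAs normally end in a conserved stem-loop in place of a poly(A) tail, and the stem-loop binding protein Slbp and the U7 small nuclear RNP form that end. H3 is also the substrate of Ezh2, the methyltransferase of Polycomb repressive complex 2.

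RNA was sequenced from tdTomato-positive cells sorted by fluorescence from dermal hyperplasia that had not yet formed tumours. The mice of both groups carried Tyr::NrasQ61K, which places the oncogenic Nras mutant under the tyrosinase promoter, together with Tyr::CreERT2 and R26R-LSL-tdTomato, and were given tamoxifen to start recombination. In the group named Ezh2Y646N the mice also carried ColA1-LSL-Ezh2Y646N, the mutant methyltransferase behind a stop cassette in the ColA1 locus; the group named NrasQ61K is the comparison group without it. Each group had 2 libraries. The tyrosinase promoter is active mainly in pigment cells, so both Nras and Cre depend on it, and neither the ages nor the separate animals are given in the labels. P-values therefore measure only the spread between these libraries, which may be technical.

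The libraries held 18115390 and 15083133 counts for Ezh2Y646N replicates 1 and 2, and 14808801 and 20600297 for NrasQ61K replicates 1 and 2. Levels are given as CPM, counts scaled to library sizes that edgeR had adjusted with TMM factors. All 12 melanocyte markers searched were present, with sums of 4125, 4166, 2844 and 3627 CPM in the same order of libraries. Basal keratinocyte markers summed to more, between 10123 and 23950 CPM, so transcripts of other skin cells were in all 4 libraries. Ezh2 was not called different between the groups (log2 fold change −0.11 ± 0.39 SE, adjusted p = 0.944), and whether reads of the transgene were assigned to it is not given in the sources used here.

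The stem-loop is the sequence that sets these mRNAs apart, so its forms are shown for members that carry the results, with the stem-loop in capitals and 5 bases on either side in lower case. All are read from GENCODE M21 transcripts on GRCm38, 5′ to 3′ on the gene's strand, at chr13:23621777-23621802 (minus strand) for Hist1h1e, chr13:23752815-23752840 (plus) for Hist1h3b, chr13:23745042-23745067 (minus) for Hist1h3c, chr3:96220413-96220438 (minus) for Hist2h2ac, chr13:23581945-23581970 (plus) for Hist1h4d, chr3:96262934-96262959 (minus) for Hist2h4 and chr13:23757361-23757386 (plus) for Hist1h4b.
Hist1h1e: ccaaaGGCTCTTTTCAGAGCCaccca
Hist1h3b: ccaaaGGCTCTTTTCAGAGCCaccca
Hist1h3c: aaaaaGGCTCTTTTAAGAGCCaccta
Hist2h2ac: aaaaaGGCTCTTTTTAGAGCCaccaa
Hist1h4d: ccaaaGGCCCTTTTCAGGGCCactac
Hist2h4: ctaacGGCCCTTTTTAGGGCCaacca
Hist1h4b: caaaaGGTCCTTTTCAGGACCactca

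Annotated transcripts of 44 of the 66 members (66.7%) held the pattern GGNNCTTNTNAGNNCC with complementary stem arms on the sense strand. The pattern alone was held by 118 of 22148 other genes with a row (0.533%), where complementary arms were not asked for. It is also the consensus of the members' own forms, so these shares are not an independent comparison. The 44 fell into 8 forms. The form shown for Hist1h1e and Hist1h3b was shared by 24 members of the H1, H2A, H2B and H3 types, and the form shown for Hist1h3c by 6 of H1, H2B and H3. The 12 H4 members with a stem-loop used 4 forms that no other type had, of which that of Hist1h4d was the commonest with 7. The other 22 members had no such stem-loop within the annotated transcript, among them Hist1h2bn and Hist2h2bb, annotated with only 381 bases each. In 22 members the transcript ended within 100 bases after the stem-loop, and in the remaining 22 it went on further, by 1153 bases in Hist1h1e, 770 in Hist1h4d and 1257 in Hist2h4.

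Histone cluster genes took 0.242% of all counts in Ezh2Y646N replicate 1 (95% Clopper-Pearson interval 0.240 to 0.245%) and 0.231% in replicate 2 (0.228 to 0.233%). They took 0.417% in NrasQ61K replicate 1 (0.414 to 0.421%) and 0.235% in replicate 2 (0.233 to 0.237%). These intervals cover counting error only. NrasQ61K replicate 1 thus stood above the other 3 libraries, which lay close together, and the groups overlapped. Summed over the 66 members, levels were 2524.5 and 2405 CPM in the Ezh2Y646N libraries and 3905.4 and 2319.5 CPM in the NrasQ61K libraries, with means of 2465 ± 84.5 and 3112 ± 1121 CPM (SD, n = 2 each). The log2 ratio of the Ezh2Y646N mean to the NrasQ61K mean was −0.34, and it was 0.09 without NrasQ61K replicate 1. No exact permutation test of 2 against 2 libraries can give a p below 0.333, so these sums carry no test. In sorted but mixed cells, the share of dividing cells and the histone mRNA per cell cannot be told apart in these sums.

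Each type's share varied less between libraries than the summed level. By counts, which favour long transcripts, H1 genes made up 38.3 to 41.2% of the histone CPM in the 4 libraries, H2A genes 15.5 to 16.9%, H2B genes 16 to 18.7%, H3 genes 7.65 to 9.14% and H4 genes 17.1 to 19.8%. Per kilobase of annotated exons the H1 share was 18.9 to 21.7%, below those of H2A (24.5 to 26.3%) and H2B (24.7 to 27.9%) in every library. Between the NrasQ61K libraries, the sum in replicate 1 exceeded that in replicate 2 by 1.57-fold for H1, 1.83-fold for H2A, 1.96-fold for H2B, 1.86-fold for H3 and 1.51-fold for H4. Between the Ezh2Y646N libraries the same ratios were 1.11, 1.09, 1.001, 1.07 and 0.934. All 5 types were therefore highest in the same library. The Hist1 cluster carried 82.3 to 87.5% of the histone CPM and Hist2 9.65 to 14.4%.

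**Figure D1:**
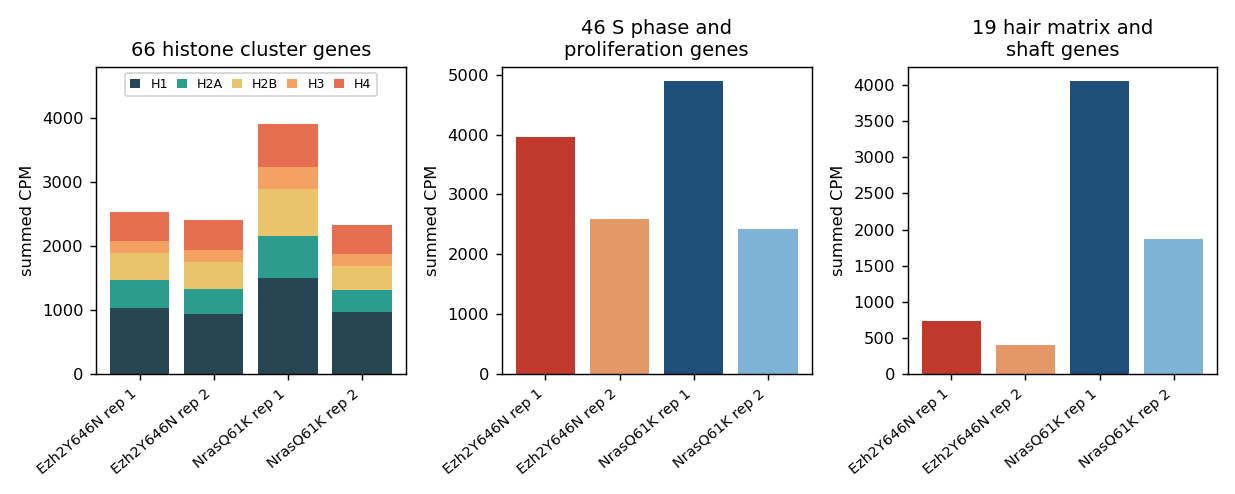
Summed CPM (vertical axes, starting at 0) in each of the 4 libraries for the 66 histone cluster genes stacked by type, for 46 S phase and proliferation genes and for 19 hair matrix and shaft genes. NrasQ61K replicate 1 has the tallest bar in all 3 panels, while Ezh2Y646N replicate 1 stands above its replicate in the S phase panel and close to it in the histone panel.

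Of the 66 members, 55 passed the filter on low counts (filterByExpr) and were tested with edgeR's quasi-likelihood test in the fit over 14265 genes. No member was called at an adjusted p of 0.05, where 1.77% of all tested genes were called (1.10% higher and 0.673% lower in Ezh2Y646N), and the smallest adjusted p of a member was 0.129. At an unadjusted p under 0.05 there were 4 members (7.27%, against 14.3% of all tested genes, 7.28% higher and 7.02% lower): Hist1h2bn, Hist1h2an and Hist1h3c lower and Hist2h2be higher in Ezh2Y646N. DESeq2 called 1 of 56 tested members, Hist1h2bn, and limma voom called none. Over all 14368 genes tested with DESeq2, 505 were called higher and 378 lower. The fitted log2 fold change was below 0 in 47 of 55 members (85.5%, against 54.0% of all tested genes), with a median of −0.36 (all tested genes −0.04). Without NrasQ61K replicate 1 it was below 0 in 22 of 56 (39.3%) with a median of 0.10, and without NrasQ61K replicate 2 the median was −0.69. The direction of the group difference therefore rested on NrasQ61K replicate 1.

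Library by library, NrasQ61K replicate 1 was the highest of the 4 for 47 of 55 tested members (85.5%), against 32.7% of all tested genes, and NrasQ61K replicate 2 was the highest for none. The ratio of NrasQ61K replicate 1 to replicate 2 had a median of 1.89 over the members and 0.997 over all tested genes. It was above 1 in 53 of 55 members; the exceptions were Hist2h2ab (0.812) and Hist1h2ad (0.947). The ratio of Ezh2Y646N replicate 1 to replicate 2 had a median of 1.06, with 32 of 55 above 1. By type, the NrasQ61K ratio had medians of 1.77 for H1, 2.07 for H2A, 2.02 for H2B, 1.81 for H3 and 1.82 for H4.

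**Figure D2:**
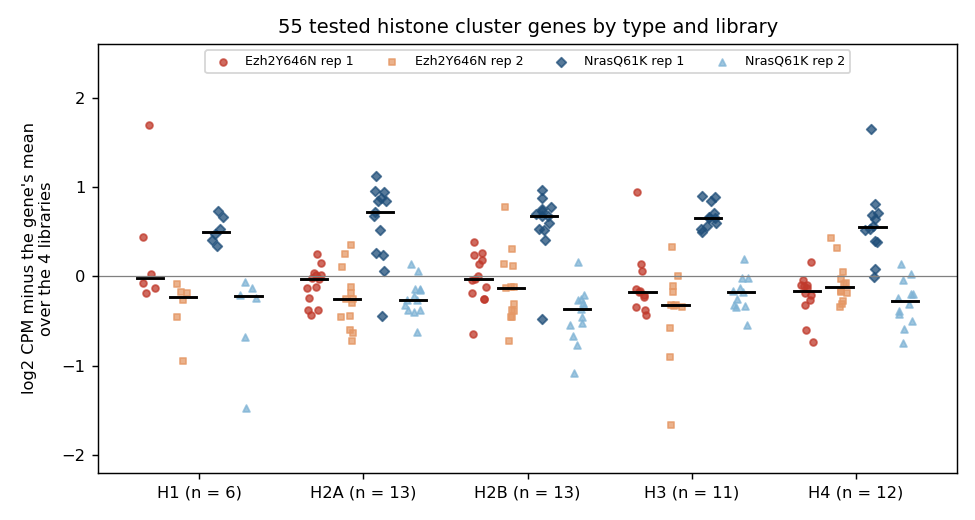
Each point is 1 of the 55 tested members in 1 library, as log2 CPM minus the gene's mean over the 4 libraries (vertical axis), grouped by histone type with the number of genes; bars are medians. The medians of NrasQ61K replicate 1 lie above those of the other 3 libraries in every type.

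The linker histones were the most counted type. Hist1h1e (ENSMUSG00000051627, chr13:23620629-23622558) was at 306 and 267 CPM in the Ezh2Y646N libraries and at 448 and 294 CPM in the NrasQ61K libraries, and only NrasQ61K replicate 1 stood apart. Its log2 fold change was −0.37 ± 0.27 (SE, adjusted p = 0.644). Hist1h1c, a linker histone also made in cells that do not divide, was at 275 and 296 CPM against 397 and 299 CPM (−0.29 ± 0.24, adjusted p = 0.699); its groups did not overlap, but NrasQ61K replicate 2 lay close to the higher Ezh2Y646N library. Hist1h1d and Hist1h1b had log2 fold changes of −0.36 and −0.48, both highest in NrasQ61K replicate 1 (310 and 248 CPM). Of the 2 other H1 genes, Hist1h1a was at 94.9 and 62.1 CPM against 92.6 and 43.8 CPM, so replicate 1 was the higher library in both groups. Hist1h1t, the testis linker histone, was near the limit of detection at 0.192 to 1.72 CPM. Hist1h1e, Hist1h1c and Hist1h1d together made up 75.3 to 81.6% of the H1 CPM.

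Among H2A genes, Hist1h2af was at 111 and 101 CPM in Ezh2Y646N and at 157 and 83.0 CPM in NrasQ61K, so the NrasQ61K libraries lay on either side of the Ezh2Y646N libraries (log2 fold change −0.18 ± 0.31, adjusted p = 0.874). Hist1h2ak had the same order of libraries, at 80.5 and 76.9 CPM against 140 and 67.4 CPM. Hist1h2an was at 16.7 and 14.2 CPM against 46.9 and 19.5 CPM, with both NrasQ61K libraries above both others. Its log2 fold change was −1.10 ± 0.41 (adjusted p = 0.270), and −0.33 without NrasQ61K replicate 1. The Hist2 members had other orders of libraries: Hist2h2ac was at 81.8 and 86.0 CPM against 94.2 and 61.4 CPM (0.11 ± 0.26), and Hist2h2ab at 14.1 and 15.1 CPM against 8.72 and 10.7 CPM (0.59 ± 0.30, adjusted p = 0.460). Among H2A genes, Hist2h2ab was the 1 tested member that was lowest in NrasQ61K replicate 1. The 8 other tested H2A genes had log2 fold changes of −0.81 to −0.16, with adjusted p from 0.473 to 0.957.

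Among H2B genes, Hist1h2bn (ENSMUSG00000095217, chr13:21754123-21754503) had the smallest p of all members. It was at 37.5 and 44.8 CPM in Ezh2Y646N and at 108 and 65.5 CPM in NrasQ61K, and the groups did not overlap. Its log2 fold change was −1.08 ± 0.29 (adjusted p = 0.129) and −0.67 without NrasQ61K replicate 1. It was called with DESeq2 (adjusted p = 0.0257), without the filter on low counts (0.00288) and with the replicate number as a block (0.00443). It was not called with RLE scaling (0.133), total-count scaling (0.0953), limma voom (0.153) or dispersion without robust estimation (0.128). Hist2h2be, whose product is known from olfactory sensory neurons, was at 7.36 and 9.67 CPM against 4.04 and 3.55 CPM, again without overlap but with the Ezh2Y646N libraries on top. Its log2 fold change was 1.16 ± 0.39 (adjusted p = 0.216) and 1.26 without NrasQ61K replicate 1. Hist2h2bb, the most counted H2B gene, was at 131 and 163 CPM against 225 and 102 CPM (−0.15 ± 0.36), and Hist1h2bc at 64.5 and 33.1 CPM against 88.3 and 47.1 CPM (−0.47 ± 0.40). In both of these the groups overlapped.

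All 11 tested H3 genes had log2 fold changes below 0, from −0.87 to −0.18, with none called, where 54.0% of all tested genes lay below 0. The log2 ratio of the summed H3 levels was −0.53, and −0.0102 without NrasQ61K replicate 1. Hist1h3b, the most counted, was at 48.5 and 43.6 CPM in Ezh2Y646N and at 86.6 and 48.5 CPM in NrasQ61K (−0.55 ± 0.31, adjusted p = 0.497). Hist1h3d was at 31.8 and 29.1 CPM against 67.6 and 28.8 CPM, and Hist1h3e at 30.2 and 34.0 CPM against 47.8 and 26.8 CPM. In these 3 genes NrasQ61K replicate 2 lay among or below the Ezh2Y646N libraries. Hist1h3c, at 16.03 and 12.6 CPM against 33.7 and 18.6 CPM (−0.87 ± 0.35, adjusted p = 0.313), and Hist1h3f, at 17.2 and 19.9 CPM against 33.2 and 22.2 CPM (−0.58 ± 0.29, adjusted p = 0.452), did not overlap between groups. Without NrasQ61K replicate 1 their log2 fold changes were −0.38 and −0.26, and those of Hist1h3b, Hist1h3d and Hist1h3e were −0.08, 0.08 and 0.26.

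Among H4 genes, Hist1h4d alone made up 40.2 to 47.1% of the type's CPM. It was at 189 and 192 CPM in Ezh2Y646N and at 282 and 208 CPM in NrasQ61K, without overlap (log2 fold change −0.36 ± 0.24, adjusted p = 0.589). Hist1h4h was at 58.5 and 53.0 CPM against 87.1 and 48.6 CPM, with overlap. Hist2h4 had its highest value in Ezh2Y646N replicate 2, at 35.5 and 57.5 CPM against 45.2 and 36.1 CPM (0.19 ± 0.29). The low Hist1h4i (2.13 and 2.56 against 5.69 and 3.55 CPM) and Hist1h4n (1.55 and 2.28 against 8.09 and 1.53 CPM) had the smallest p-values of the type, with adjusted p of 0.465 and 0.538. Hist4h4, the only member of its cluster, was at 31.2 and 41.9 CPM against 33.6 and 29.4 CPM.

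**Figure D3:**
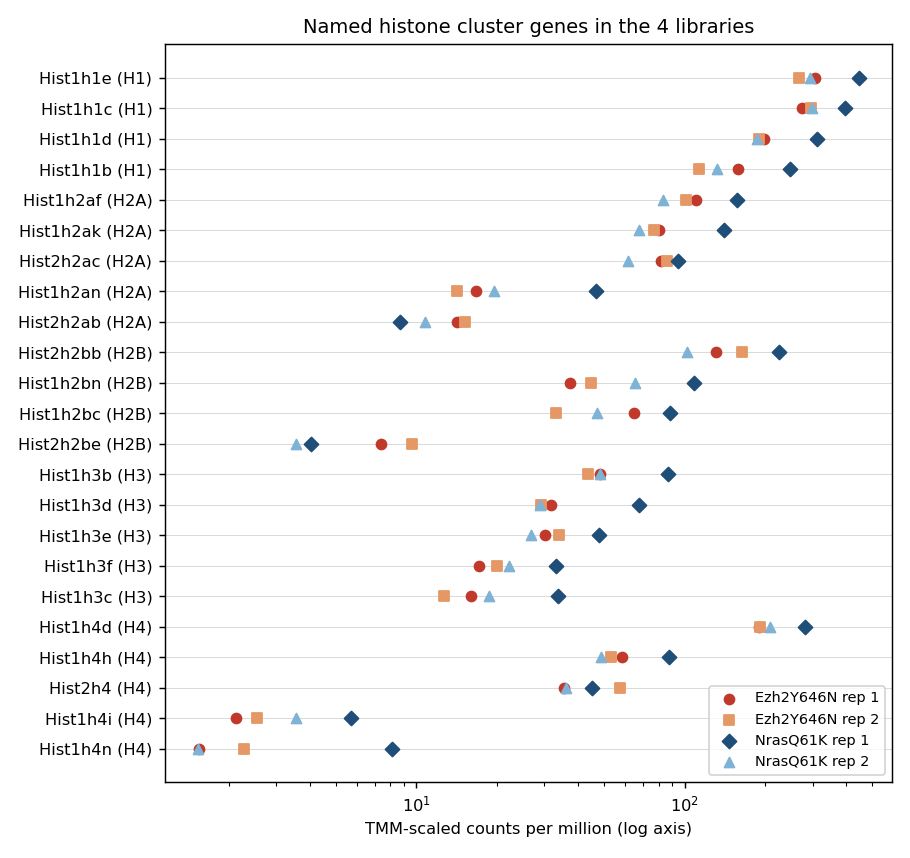
TMM-scaled CPM (horizontal log axis) of 23 members in the 4 libraries, sorted by type and mean level. The diamond of NrasQ61K replicate 1 is the rightmost symbol in 20 rows; the exceptions are Hist2h2ab and Hist2h2be, where the Ezh2Y646N libraries are rightmost, and Hist2h4, where Ezh2Y646N replicate 2 is.

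Counts per gene favour long transcripts, so the order of levels between genes is given per kilobase of annotated exons. On that scale Hist2h2bb came first with a mean of 407 CPM per kb, followed by Hist1h2af (283), Hist1h2ak (232), Hist1h1b (219), Hist1h1c (203) and Hist1h4d (191). Hist1h1e, first by CPM, had rank 7 with 170 CPM per kb. The highest H3 gene, Hist1h3b, had rank 12. Values ranged over the libraries from 267 to 590 CPM per kb for Hist2h2bb and from 208 to 394 for Hist1h2af, and in each library Hist2h2bb was above Hist1h2af and Hist1h2af above Hist1h2ak. Hist1h2ak and Hist1h1b, the next neighbours, changed places between libraries. Annotated length itself differed in kind: the 7425 bases of Hist1h1d include a long extension past the stem-loop, which placed it at rank 32.

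The libraries of the 2 groups did not overlap for 14 of the 55 tested members, 12 lower in Ezh2Y646N (21.8%) and 2 higher (3.64%). Over all tested genes 23.1% did not overlap and were lower in Ezh2Y646N, and 21.1% were higher. The share of members separated in the lower direction was thus near the background, and the share in the higher direction was below it. In either direction the shares were 25.5% of tested members and 44.2% of all tested genes. The 12 were Hist1h1c, Hist3h2a, Hist1h2an, Hist1h2ab, Hist1h2bn, Hist1h2bk, Hist1h3f, Hist1h3c, Hist1h4d, Hist1h4c, Hist1h4f and Hist1h4i, and the 2 higher were Hist2h2ab and Hist2h2be.

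The clusters differed in their values. In Hist1, 42 of 45 tested members were highest in NrasQ61K replicate 1, 42 had a log2 fold change below 0 and the median was −0.41. The log2 ratio of the summed Hist1 levels was −0.39, and 0.0375 without NrasQ61K replicate 1, so its sign rested on that library. In Hist2, 3 of 7 tested members were highest in that library, 3 were below 0 and the median was 0.11; that median was −0.17 with no filter on low counts, −0.07 without Ezh2Y646N replicate 2 and −0.13 without NrasQ61K replicate 2, so its sign depended on the setting. Summed Hist2 levels were 281 and 345 CPM in Ezh2Y646N and 397 and 224 CPM in NrasQ61K, so these groups overlapped too. The Hist2 sum was thus also highest in NrasQ61K replicate 1, at 1.77-fold of replicate 2, where the Hist1 sum had 1.69-fold. By gene, that ratio was above 1 in 6 of 7 tested Hist2 members, with a median of 1.255 against 1.938 in Hist1. Hist1 itself is split by gaps of over 100 kb on chromosome 13. The 12 tested genes between Hist1h2bl and Hist1h2br (21715763 to 21837530) had a median of −0.50, the 5 between Hist1h2ah and Hist1h2bj (22035164 to 22043676) −0.81, and the 28 between Hist1h4h and Hist1h1a (23531050 to 23764406) −0.36. Their ratios of NrasQ61K replicate 1 to replicate 2 had medians of 2.17, 2.32 and 1.86. The differences between clusters and between these stretches were not tested.

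**Figure D4:**
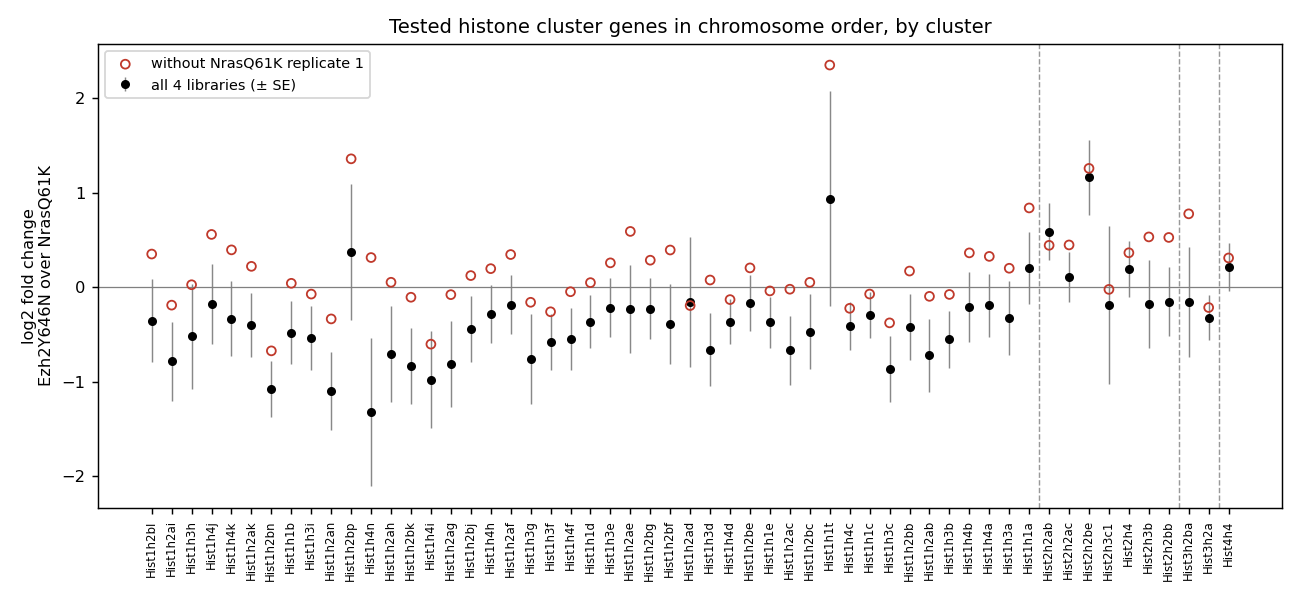
Log2 fold change of Ezh2Y646N over NrasQ61K (vertical axis) for the 55 tested members in chromosome order, with dashed lines between clusters; black points with SE use all 4 libraries and open circles leave out NrasQ61K replicate 1. Most black points lie below 0 (47 of 55), and most open circles lie above their black point, around 0.

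H2A and H2B genes often lie head to head and share the sequence between their starts. Among the 66 members, 12 H2A and H2B pairs had starts within 1000 bases of each other. Hist1h2ak and Hist1h2bn, 296 bases apart, had log2 fold changes of −0.40 ± 0.34 and −1.08 ± 0.29. Hist2h2ac and Hist2h2be, 239 bases apart, differed more in level, at 155 and 2.35 CPM per kb, with log2 fold changes of 0.11 ± 0.26 and 1.16 ± 0.39. Hist1h2an and Hist1h2bp, 243 bases apart, were at 61.9 and 2.65 CPM per kb with log2 fold changes of −1.10 and 0.37. Of the 9 pairs with both genes tested, the H2A gene had the higher level per kilobase in 4, these 3 among them, and the H2B gene in 5, such as Hist1h2bg (56.0) over Hist1h2ae (14.7) and Hist1h2bf (39.3) over Hist1h2ad (2.48).

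Sequence upstream of the start is shown for 1 member of each type, since the types were higher together in NrasQ61K replicate 1. Each line gives the 130 bases before the start annotated by RefSeq on GRCm38.p6, 5′ to 3′ on the gene's strand: chr13:23622559-23622688 (minus) for Hist1h1e, chr3:96220881-96221010 (minus) for Hist2h2ac, chr13:21753946-21754075 (plus) for Hist1h2bn, chr13:23752215-23752344 (plus) for Hist1h3b and chr13:23581438-23581567 (plus) for Hist1h4d. Capitals mark matches, on either strand, to the TATA box TATAAA, the CCAAT box CCAAT, the H1 box AAACACA and the octamer ATTTGCAT.
Hist1h1e: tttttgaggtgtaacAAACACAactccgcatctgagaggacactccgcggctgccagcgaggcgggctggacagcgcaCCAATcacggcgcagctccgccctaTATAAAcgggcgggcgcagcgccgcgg
Hist2h2ac: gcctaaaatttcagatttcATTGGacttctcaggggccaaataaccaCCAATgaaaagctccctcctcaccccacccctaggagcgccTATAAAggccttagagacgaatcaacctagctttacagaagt
Hist1h2bn: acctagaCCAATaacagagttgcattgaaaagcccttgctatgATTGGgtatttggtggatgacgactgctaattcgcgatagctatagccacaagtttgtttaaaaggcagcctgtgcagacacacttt
Hist1h3b: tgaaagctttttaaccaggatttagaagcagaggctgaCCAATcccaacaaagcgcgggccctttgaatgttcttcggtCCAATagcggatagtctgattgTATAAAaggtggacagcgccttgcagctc
Hist1h4d: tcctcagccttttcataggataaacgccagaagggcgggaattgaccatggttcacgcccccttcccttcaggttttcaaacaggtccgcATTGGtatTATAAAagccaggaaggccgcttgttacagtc

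RefSeq windows from 250 bases before to 50 after the start were matched for 60 of the 66 members. TATAAA was found on either strand in 35 of 60 (58.3%) against 14.1% of 26965 other windows, and CCAAT in 51 (85.0%) against 37.8%. All 6 H1, 18 H2A, 14 H2B and 10 H3 windows held CCAAT, and 3 of 12 H4 windows did (25%). AAACACA was in 5 of 6 H1 windows (83.3%) against 7.12% of other windows. ATTTGCAT was in 12 members (20.0%), 7 H2A and 5 H2B genes, against 1.71%. None of the 4 patterns contains another, and a match describes letters, not a bound factor.

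Many histone genes are near copies of each other, and counts of such genes depend on how reads with several matches were treated, which is not given in the sources used here. Of the 50-base pieces of each member's transcript, the share found in no gene at another locus was under 50% for 31 members and at least 90% for 13. It was 13.6% for Hist1h2bn, 14.2% for Hist1h2an and 20.3% for Hist1h2af, so values of these genes are uncertain, and 100% for Hist2h2bb and Hist2h2be. Of the 10 members with under 10 counts in all 4 libraries together, 8 had a share under 50%, among them the copies Hist2h2aa1 and Hist2h2aa2 and the copies Hist1h2ao and Hist1h2ap. The other 2, Hist1h2aa and Hist1h2ba, are testis histones, and both had no count in any library. Hist1h2ao was the third member with no count.

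The 33 tested members with a share of at least 50% had a median log2 fold change of −0.28, and their NrasQ61K replicate 1 to replicate 2 ratio had a median of 1.81. Without NrasQ61K replicate 1 their median log2 fold change was 0.20, a split chosen after seeing the data. The 22 tested members under 50% had medians of −0.53 and 2.05, and all 22 lay below 0. Summed over all 31 members under 50%, levels were 523.9 and 485.1 CPM in Ezh2Y646N and 949.2 and 480.5 CPM in NrasQ61K. Only NrasQ61K replicate 1 stood apart in these sums. In the 12 tested members with at least 90%, the median log2 fold change was −0.16 with 7 of 12 below 0. Their ratio had a median of 1.56, and NrasQ61K replicate 1 was the highest library for 7 of 12. These values lay nearer to those of all genes. Besides Hist1h2be, the 12 were the H1 genes and Hist3h2a, Hist2h2bb, Hist2h2be, Hist2h4 and Hist4h4, which lie outside Hist1. Tested members outside Hist1 had a median of −0.02, with 5 of 10 below 0. Unique sequence, type and cluster therefore cannot be told apart in this split. By the 3′ end, the ratio had medians of 1.98 in the 17 tested members whose transcripts end soon after the stem-loop, 1.603 in the 21 whose transcripts go on and 2.03 in the 17 with no stem-loop in the annotation. Exons of 25 members overlap another annotated gene, among them Hist1h1e with Hist1h2be and Hist3h2a with Trim17. Hist2h2bb, first per kilobase, overlaps Gm20628 and Gm42743, which have no row, over 59.3% of its exons on its own strand and all of them on the other. Reads in such stretches cannot be assigned to 1 gene with certainty.

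**Figure D5:**
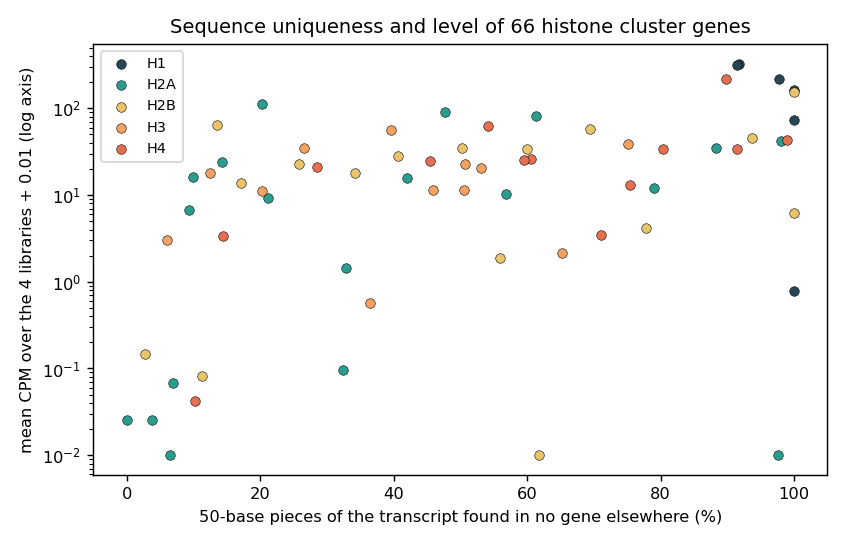
Mean CPM over the 4 libraries plus 0.01 (vertical log axis) against the percentage of a transcript's 50-base pieces found in no gene elsewhere, for 66 members coloured by type. Most points below 1 CPM lie at the left, under 50%, while H1 genes lie at 91.5% or more.

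Genes that act on histone mRNA or histone proteins were read from the same fit. Of 29 genes for transcription, 3′ processing and decay of histone mRNA, none was called and none had an unadjusted p under 0.05, and the median was 0.03. Slbp was at 56.3 and 46.7 CPM in Ezh2Y646N and at 57.6 and 45.5 CPM in NrasQ61K. The smallest p-values belonged to Sympk, a scaffold of the cleavage complex (log2 fold change −0.43, adjusted p = 0.488), and Lsm11, a U7 RNP subunit (0.52, adjusted p = 0.526). NrasQ61K replicate 1 was the highest library for 17 of the 29. Of 25 histone chaperones none was called; Cabin1 of the HIRA complex was at −0.55 (adjusted p = 0.306) and Mms22l, which acts at replication forks, at −0.56 (adjusted p = 0.656).

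Histone genes outside the clusters, which make variant or replication-independent histones, had no such library pattern in sum. Their 17 rows summed to 1580 and 1457 CPM in Ezh2Y646N and to 1481 and 1510 CPM in NrasQ61K. Of the 11 tested none was called, and NrasQ61K replicate 1 was the highest library for 3. H2afy2, a macroH2A gene, was at 27.4 and 22.9 CPM against 14.03 and 13.4 CPM (log2 fold change 0.87 ± 0.27, adjusted p = 0.171), and H2afy, the other macroH2A gene, had a log2 fold change of 0.48 ± 0.21 (adjusted p = 0.357). In both the Ezh2Y646N libraries were the higher ones.

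Markers of dividing cells had their highest sum in NrasQ61K replicate 1 too, and their sums lay further apart between the Ezh2Y646N libraries than those of the histone genes. The 46 S phase and proliferation genes summed to 3967 and 2589 CPM in the Ezh2Y646N libraries and to 4895 and 2425 CPM in the NrasQ61K libraries. The ratio of replicate 1 to replicate 2 had a median of 1.87 in NrasQ61K and 1.597 in Ezh2Y646N, where the histone cluster genes had 1.89 and 1.06. The highest library was NrasQ61K replicate 1 for 32 of the 46 and Ezh2Y646N replicate 1 for 13. None was called, 1 had an unadjusted p under 0.05 (Gins2, a subunit of the replicative helicase, 0.81, adjusted p = 0.330), and the median was −0.07; E2f2 had the next smallest p (−0.82, adjusted p = 0.378).

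Markers of other skin cells differed between the libraries as well. All 19 measured genes of the hair matrix, shaft and inner root sheath were highest in NrasQ61K replicate 1, and 8 of them were called lower in Ezh2Y646N. Their sums were 726 and 397 CPM in Ezh2Y646N and 4058 and 1869 CPM in the 2 NrasQ61K libraries. Of 12 fibroblast markers 10 were highest in NrasQ61K replicate 1 too, with sums of 966, 2254, 4481 and 2649 CPM, and 2 were called lower. Suprabasal epidermal markers were lowest in it, with sums of 44631, 31643, 3589 and 9328 CPM in the same order of libraries, and 5 of 11 were called higher. Macrophage and dendritic cell markers had another order: 11 of 12 were highest in NrasQ61K replicate 2, with sums of 82.4, 149, 180 and 419 CPM and none called. The 10 endothelial markers summed to 152, 94.4, 243 and 214 CPM, all had log2 fold changes below 0 and none was called. Of 10 Schwann cell and glia markers 8 were highest in Ezh2Y646N replicate 1, with sums of 1079, 481, 294 and 483 CPM, and 1 was called. Lymphocyte and mast cell markers summed to 176.5, 145.6, 211.6 and 215.5 CPM, with none called. Erythroid markers summed to 11.2, 7.87, 2.65 and 5.51 CPM, also with none called. The part of these cells in the histone values was not tested.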

How the data were processed

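The authors deposited raw read counts per Ensembl gene, whole numbers for 22524 genes in each of 4 libraries. Per the labels' protocols, RNA came from a micro-scale column kit and libraries from a strand-keeping kit that works from minute amounts of total RNA and depletes rRNA. Tools in the submitters' processing notes are STAR 2.5.4b, featureCounts, Trimmomatic, bcl2fastq 2.19 and edgeR, with the build GRCm38. The sources used here give no annotation release, strand setting or treatment of reads with several matches, and these bear on near-identical histone genes.

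Symbols, exon lengths and transcripts were taken from GENCODE M21, which held 22291 of the identifiers; 233 had no match. The test was edgeR's (version 4.0.16, under R 4.3.3), with filterByExpr (minimum count 10, minimum total 15), TMM (trimmed mean of M-values) scaling, and then a quasi-likelihood fit by group with robust dispersion leaving 2 residual degrees of freedom. Each two-sided p was adjusted for all 14265 tests by Benjamini-Hochberg, and 0.05 was the threshold. A positive log2 fold change means higher in Ezh2Y646N; the SE was derived from the fold change and its F statistic. Precision was limited by 2 libraries a group, with a biological coefficient of variation of 27.9%; the depth per library is given with the results. The fit was also run on simulated counts, but how often it recovers changes of the size seen here is not given.

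Named members were the 3 with the highest mean CPM and the 2 with the smallest p in each histone type, plus any called; from other lists, any called or else the 2 with the smallest p. Other members named in the text were chosen after their values were seen. The members are fixed by a rule on names, but this gene family and the lists were taken up with earlier results of these data known. A list of 17 other RNAs without a poly(A) tail had no row in the files and was not analysed here. Alternatives were other scaling (RLE as computed in edgeR, total counts), no low-count filter, and removal of mitochondrial, haemoglobin and small RNA genes. Further ones were dispersion without robust estimation, DESeq2 1.42.0, limma voom 3.58.1, the replicate number as a block, and leaving out each library.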

Additional observations from a re-analysis of the deposited data

How the results depend on the processing

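The count of histone cluster genes called between the groups was 0 with edgeR, with 4 at an unadjusted p under 0.05, and stayed 0 under RLE scaling, total-count scaling, removal of mitochondrial, haemoglobin and small RNA genes, dispersion without robust estimation and limma voom. It was 2 with no filter on low counts (Hist1h2bn, adjusted p = 0.00288, and Hist1h2an, adjusted p = 0.00839), 1 with DESeq2 (Hist1h2bn, adjusted p = 0.0257) and 0 to 6 when 1 library was left out, the 6 without NrasQ61K replicate 2. Over all genes the count of 253 became 1302 with no filter, 883 with DESeq2 and 92 to 1123 when 1 library was left out. With the replicate block, 1337 genes and 2 members were called (Hist1h2bn, adjusted p = 0.00443, and Hist1h2an, adjusted p = 0.0198). The replicate numbers share no stated origin. Deviations of the replicate 1 libraries from their group means had a correlation of 0.141 over the tested genes. With 2 libraries a group, the replicate 2 libraries give the same value by construction.

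Total-count scaling moved the median of all genes from −0.04 to −0.16 and turned Hist2h2ac to −0.0142; no other named member changed direction under another scaling or tool. Leaving out 1 library gave a median over the tested members of −0.69 to 0.10, and summed-level log2 ratios of −0.66 to 0.0876 for all members, −0.61 to 0.0366 for H1, −0.68 to 0.19 for H2A, −0.78 to 0.19 for H2B, −0.91 to −0.0102 for H3, −0.54 to 0.0608 for H4, −0.72 to 0.0375 for Hist1 and −0.34 to 0.48 for Hist2. Each highest value was the one without NrasQ61K replicate 1. Named members that changed direction when 1 library was left out ranged from −0.64 to 0.0495 for Hist1h1d, −0.82 to 0.0422 for Hist1h1b, −0.53 to 0.35 for Hist1h2af, −0.79 to 0.22 for Hist1h2ak, −0.13 to 0.45 for Hist2h2ac, −0.57 to 0.53 for Hist2h2bb, −1.03 to 0.0525 for Hist1h2bc, −1.11 to 0.0772 for Hist1h3d, −0.53 to 0.26 for Hist1h3e, −0.60 to 0.20 for Hist1h4h, −0.20 to 0.50 for Hist2h4 and −2.04 to 0.31 for Hist1h4n. Where a group had 1 library left, that library was assumed to vary like those of the other group. The cause of these changes was not tested. The filter left 11 members untested, 10 of them with under 10 counts in all; without it 63 were tested.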
